A study of Mus musculus with 2 samples.

Results

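The 10 genes described here encode Notch receptors (Notch1, Notch2, Notch3), the Jagged ligands (Jag1, Jag2), the DNA-binding partner of the cleaved receptor (Rbpj) and the Hes and Hey repressors that the pathway switches on (Hes1, Hey1, Hey2, Heyl). They were taken by gene symbol from a count table of 19674 gene rows, and all 10 were found. The table held 2 libraries from mouse skin fibroblasts of a wild-type line that the labels name MDFB. The first culture received Vehicle and the other the inflammatory cytokine IL-17A, with 1 batch label for both. The labels gave neither dose nor length of treatment nor the passage of the line, and each group was 1 library. The Vehicle library held 24427027 counts and the IL-17A library 23559416. With 1 library per group no difference had a replicate check or a p-value. Levels are in CPM, in which counts are divided by the TMM-adjusted library size. Each ratio, IL-17A over Vehicle, carries an exact 95% Clopper-Pearson interval that covers counting error only and not the spread between cultures. Amplified reads with no molecular identifier do not stand for independent molecules, so the interval may be too narrow even for that error.

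Notch signalling works between touching cells. A Delta or Jagged ligand on one cell pulls on a Notch receptor on its neighbour, which lets an ADAM protease and then gamma-secretase cut the receptor and free its intracellular part. That part enters the nucleus and joins Rbpj, which otherwise sits on DNA with corepressors, and a Mastermind coactivator, and the complex switches on Hes and Hey genes. In skin the pathway is known for keratinocyte differentiation and hair follicle maintenance, and Notch3 and the Hey factors are also known from the mural cells that wrap vessels.

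The labels were first set against defining transcripts. Cxcl1, Lcn2 and Il6, known IL-17 response genes, were 20.5-fold, 54.0-fold and 12.8-fold higher in the IL-17A library. All 11 fibroblast markers were measured, 2 called higher and 0 lower by the 2-fold limit used throughout, and they went both ways: Col1a1, the most abundant, had 590781 Vehicle and 348690 IL-17A counts, a log2 ratio of -0.64. Col3a1 stood at -0.82, Vim at -0.59, Pdgfra at -0.06, Twist2 at 1.15 and Dcn at 2.62, these chosen after their values were seen. Fibroblast markers summed to 57120 CPM with Vehicle and 43463 with IL-17A, and markers of other cells were low beside them. Most of the Vehicle sum was collagen, with Col1a1, Col1a2 and Col3a1 at 23622.6, 16207.5 and 9351.5 CPM. The lists differ in size and CPM is not scaled by length, so these sums do not give shares of cells. Endothelial markers summed to 8.96 CPM with Vehicle and 7.0 with IL-17A, and keratinocyte markers to 2.52 and 3.39. Immune markers summed to 40.2 and 39.6, and Schwann or neural crest markers to 10.8 and 12.3. Of these lists, Krt1 and Cd3e had no count in either library, and the most abundant genes were Cdh5 (33 and 47 counts), Krt10 (28 and 27), Csf1r (408 and 402) and Sox10 (145 and 129). Mural cell markers were higher in level and are given beside the receptors. The levels of other cells' markers were not low beside every member, since Notch1 stood at 34.8 CPM and Heyl at 5.04 with Vehicle. The part of such cells in the members was not tested.

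With IL-17A, transcripts of Notch1, Notch3, Jag1, Hes1 and Heyl were lower by 2-fold or more, while Notch2 and Rbpj were higher by less than 2-fold. A gene was called measured at 50 or more counts summed over both libraries and called where its ratio reached 2-fold in either direction, which is a size limit and not a test. By these rules 7 of the 10 genes were measured, 5 of the 7 were called lower and 0 were called higher. Among all 13534 measured genes, 3.69% were called lower and 5.19% higher. The members were chosen with earlier results of these data known, so the contrast with all genes is a description only. The 7 measured members had a median log2 ratio of -1.02, beside 0.00 over all measured genes. The other 3 members, Jag2, Hey1 and Hey2, had 12, 25 and 13 summed counts. Hey1 and Hey2 were lower in the IL-17A library with intervals that left out equality, and the interval of Jag2 held it. In bulk RNA, fewer cells of a type and less RNA per cell cannot be told apart.

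**Figure D1:**
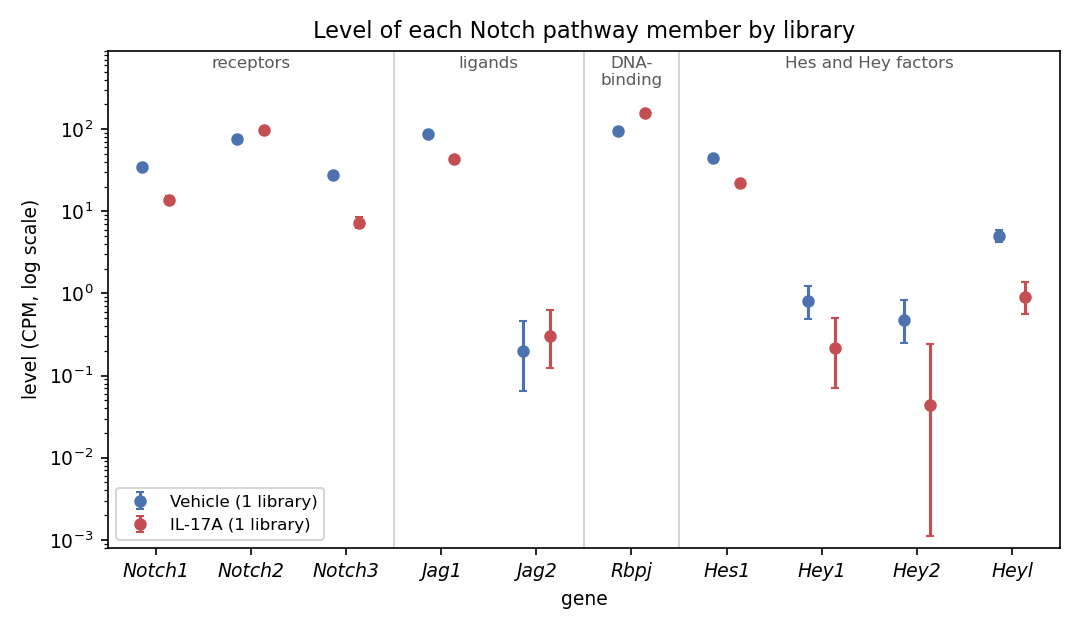
Level of each of the 10 genes in the Vehicle library (blue) and the IL-17A library (red), in CPM on a log axis, grouped by role. Points are single libraries and bars are exact 95% Poisson intervals of the counts. Notch1, Notch3, Jag1, Hes1 and Heyl sit lower with IL-17A, and Notch2 and Rbpj sit higher.

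**Figure D2:**
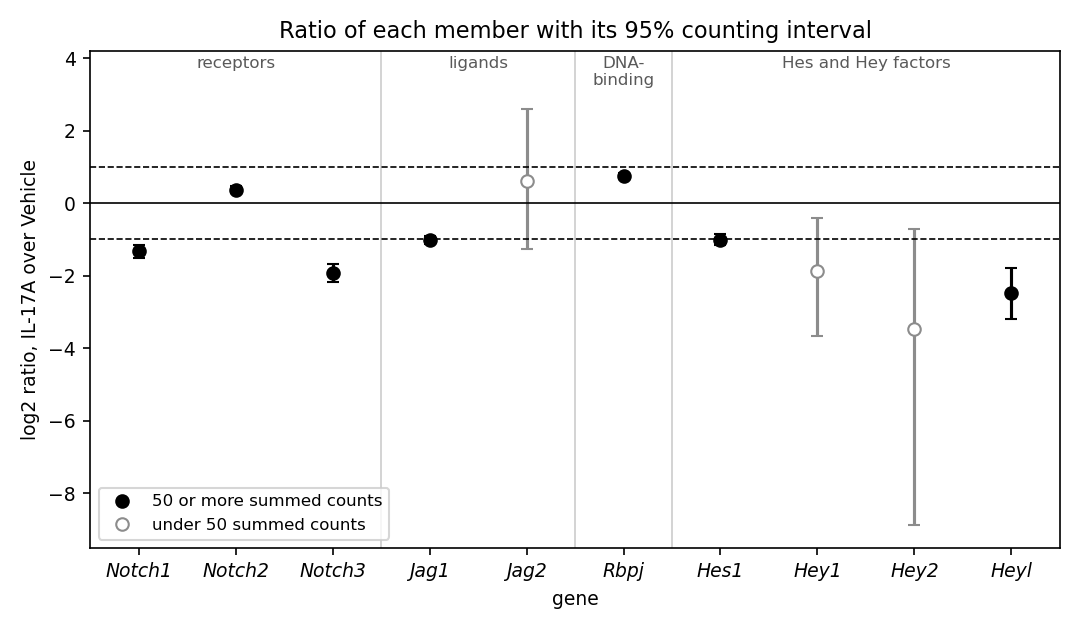
Log2 ratio of IL-17A over Vehicle for each gene (vertical axis) with its 95% counting interval. Dashed lines mark 2-fold, and open grey points are the 3 genes with under 50 summed counts. Jag1 and Hes1 lie on the lower dashed line at -1.02 and -1.01, and Notch3 and Heyl lie well under it at -1.93 and -2.46.

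Promoter sequences are shown for 4 genes that differ in direction: Hey2 and Notch3, which were lower with IL-17A, and Rbpj and Notch2, which were higher. Windows of 250 bases before to 50 after a transcript start came from RefSeq on GRCm38.p6, the build also called mm10, and 7 of the 10 genes had one. The letters of the Rbpj core, TGGGAA, and the NF-kB site were searched on both strands and are in capitals. The sequences run 5′ to 3′ on the strand of the gene.
Hey2 (chr10:30842734-30843033, minus strand): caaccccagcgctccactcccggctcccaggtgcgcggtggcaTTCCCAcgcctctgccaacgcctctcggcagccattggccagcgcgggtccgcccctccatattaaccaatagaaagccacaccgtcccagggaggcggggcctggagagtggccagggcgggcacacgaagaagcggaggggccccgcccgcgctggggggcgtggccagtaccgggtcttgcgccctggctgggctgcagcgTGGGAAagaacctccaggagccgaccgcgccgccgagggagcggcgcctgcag
Rbpj (chr5:53590096-53590395, plus strand): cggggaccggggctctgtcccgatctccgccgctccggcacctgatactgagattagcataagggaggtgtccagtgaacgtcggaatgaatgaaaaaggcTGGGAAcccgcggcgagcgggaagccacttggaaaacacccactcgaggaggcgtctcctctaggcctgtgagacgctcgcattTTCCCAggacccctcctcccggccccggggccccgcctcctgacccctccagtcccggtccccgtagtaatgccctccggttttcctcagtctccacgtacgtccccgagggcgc
Notch2 (chr3:98013288-98013587, plus strand): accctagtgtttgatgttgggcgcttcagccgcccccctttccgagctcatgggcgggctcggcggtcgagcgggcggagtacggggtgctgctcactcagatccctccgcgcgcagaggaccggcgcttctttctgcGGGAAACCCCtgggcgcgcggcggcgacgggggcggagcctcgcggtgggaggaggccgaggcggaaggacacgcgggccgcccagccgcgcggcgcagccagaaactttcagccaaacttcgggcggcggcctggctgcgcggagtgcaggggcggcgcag
Notch3 (chr17:32166841-32167140, minus strand): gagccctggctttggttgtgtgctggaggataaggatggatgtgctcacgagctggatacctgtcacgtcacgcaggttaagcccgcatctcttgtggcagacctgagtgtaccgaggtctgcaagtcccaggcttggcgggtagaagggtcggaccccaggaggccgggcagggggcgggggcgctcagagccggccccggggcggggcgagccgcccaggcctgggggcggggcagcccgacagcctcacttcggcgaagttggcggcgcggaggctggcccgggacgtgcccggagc
Hey2 held the Rbpj core 2 times, with first bases at -207 and -3 from the transcript start, so the second match spans the start. Rbpj itself held it 2 times in the window shown, and the 1 match in its other window, which overlaps this one, is the second of these sites again. Both windows lie inside the Rbpj span, which begins at base 53555779, so the outermost start of the gene was not searched. Notch2 held the NF-kB site at 1 position, where the letters read as a match on both strands. No match to either motif was found for Notch1, Notch3, Jag1 or Jag2 in these windows, and the motifs overlapped in none of the windows of the 7 genes searched. Hes1, Hey1 and Heyl were not searched. The Rbpj core is present in 25.6% of all 32851 promoter windows of this length and the NF-kB site in 8.46%, so a match here is a description of letters and not of binding.

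Among the receptors, Notch1 and Notch3 were lower with IL-17A and Notch2 was higher, so that Notch2 made up more of the receptor transcripts. Notch1, on chromosome 2 at 26457902 to 26503822, had 870 Vehicle and 318 IL-17A counts, 34.8 and 13.8 CPM. It was 2.52-fold lower (interval 2.21 to 2.87). Notch3, on chromosome 17 at 32120820 to 32166896, had 692 and 167 counts, 27.7 and 7.26 CPM. It was 3.81-fold lower (interval 3.22 to 4.54), and 131 of the measured genes (0.968%) had a lower ratio. Notch2, on chromosome 3 at 98013538 to 98150367, had 1880 and 2243 counts, 75.2 and 97.5 CPM, and was 1.30-fold higher (interval 1.22 to 1.38). The receptor genes thus went in opposite directions, with intervals that did not meet.

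Ratios between genes of one library do not depend on library scaling. There were 0.368 Notch3 counts for each Notch2 count with Vehicle and 0.0745 with IL-17A, a 4.94-fold lower ratio (interval 4.12 to 5.95). For Notch1 against Notch2 the count ratios were 0.463 and 0.142, a 3.26-fold lower ratio (interval 2.83 to 3.78). Notch3 was also lower relative to Notch1, by 1.51-fold (interval 1.22 to 1.89). Per kilobase of transcript, Notch2 made up 50.1% of the level of these receptors with Vehicle and 79.7% with IL-17A. Notch1 held 25.7% and 12.5%, and Notch3 24.2% and 7.77%. The summed level of the 3 receptors was 138 CPM with Vehicle and 119 with IL-17A, 1.16-fold lower (interval 1.10 to 1.22), so the sum differed far less than Notch1 or Notch3 did. Notch4, an endothelial receptor, had 7 and 21 counts and was not measured. Its ratio was 3.26-fold higher, with an interval of 1.34 to 9.08 that left out equality.

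**Figure D3:**
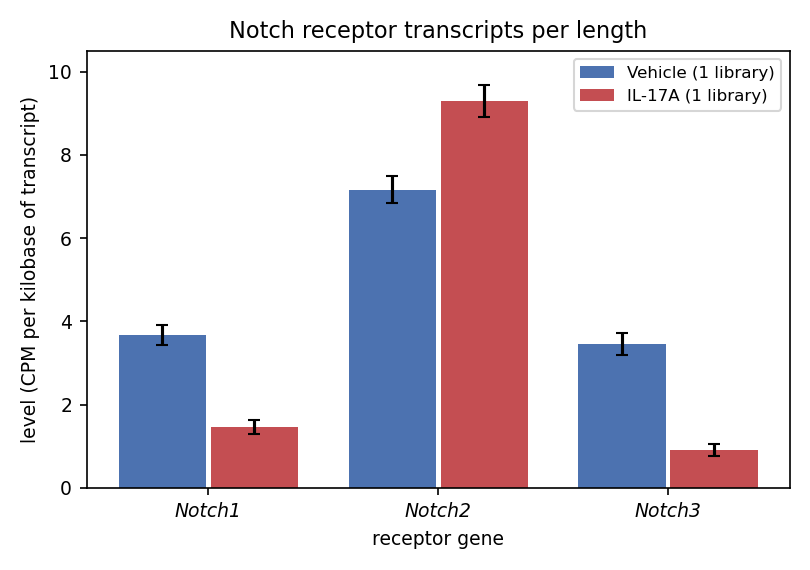
Level of the Notch receptor transcripts in CPM per kilobase of transcript (linear axis from 0), Vehicle in blue and IL-17A in red, 1 library each, with exact 95% Poisson intervals. Notch1 and Notch3 stand near each other with Vehicle, at 3.67 and 3.45, and stand at 1.46 and 0.905 with IL-17A, while Notch2 goes from 7.16 to 9.28.

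Transcripts of the mural cell list used here were lower in the same library as Notch3. Of 8 mural cell markers, which include Notch3 itself, 7 were in the table and 6 were measured. Of the 6, 5 were called lower and 0 higher, beside 3.69% lower and 5.19% higher among all measured genes. Without Notch3 their summed level was 180 CPM with Vehicle and 59.6 with IL-17A. Cspg4, the NG2 proteoglycan, had 2908 and 1070 counts, and the smooth-muscle myosin Myh11 had 1101 and 135. Abcc9 and Kcnj8, subunits of a vascular potassium channel, had 169 and 12 and 100 and 6 counts, and Rgs5 had 21 and 6. Des, the 1 measured marker within the limit, had 196 and 142 counts, a log2 ratio of -0.34. Pdgfrb and Acta2, which were on other lists here, stood at 0.38 and -0.31, both chosen after their values were seen. The mural markers other than Cspg4 were chosen after their values were seen, and no marker of the list in the table was at 0. The part of these transcripts in the Notch3, Heyl and other values was not tested. Of 8 endothelial markers, 4 were measured and 2 called lower, Erg with 53 and 9 counts and Tek with 49 and 18. Kdr, under 50 summed counts, was also lower, with 31 and 10. Others on that list went the other way or stood level. Pecam1, also under 50 summed counts, had 11 and 33 counts, Cdh5 had 33 and 47 and Vwf had 29 and 27. These endothelial genes other than Cdh5 were chosen after their values were seen, and their part was likewise not tested.

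Of the ligands, Jag1 was lower by about the size of the limit and Jag2 was barely detected. Jag1, on chromosome 2 at 137081451 to 137116520, encodes a transmembrane ligand for all Notch receptors and is itself known as a target of the pathway. It had 2184 Vehicle and 993 IL-17A counts, 87.3 and 43.2 CPM, 2.02-fold lower (interval 1.88 to 2.18). The interval included 2-fold, so Jag1 stood at the limit and not beyond it. Jag2, on chromosome 12 at 112907803 to 112929812, had 5 and 7 counts. Its ratio of 1.52-fold higher had an interval from 0.416 to 6.08, and no difference was detectable at this depth. Jag1 held 99.7% of the Jagged level per kilobase with Vehicle and 99.2% with IL-17A.

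The other ligand genes did not share one direction. Dll1, a Delta ligand, had 104 Vehicle and 244 IL-17A counts and was 2.55-fold higher (interval 2.02 to 3.24). There were 21 Jag1 counts for each Dll1 count with Vehicle and 4.07 with IL-17A, a 5.16-fold lower ratio (interval 4.03 to 6.63). Dll4 had 1 and 2 counts. Dlk1, a Delta-like protein without the domain that activates Notch and known as an inhibitor of fat cell formation, had 3871 and 1629 counts and was 2.19-fold lower (interval 2.06 to 2.32). Of the 7 ligand genes listed, 4 were measured, 1 called higher and 2 lower, with a median log2 ratio of -0.73.

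Rbpj, the protein through which all Notch receptors reach DNA, was higher with IL-17A. It lies on chromosome 5 at 53555779 to 53657445 and had 2346 Vehicle and 3621 IL-17A counts, 93.8 and 157 CPM. It was 1.68-fold higher (interval 1.59 to 1.77), within the 2-fold limit. Of the measured genes, 7.52% had a higher ratio. The processed pseudogene Rbpj-ps3, a copy of Rbpj, had a row of its own with 652 and 1131 counts and was 1.89-fold higher, so the level of Rbpj is uncertain where reads fit both. Summed with Rbpj the ratio was 1.72-fold (interval 1.65 to 1.80).

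The 4 Hes and Hey members, basic helix-loop-helix repressors and the best-known direct targets of Notch, were all lower in the IL-17A library. Hes1, on chromosome 16 at 30065357 to 30067796, had 1126 Vehicle and 514 IL-17A counts, 45.0 and 22.3 CPM, 2.02-fold lower (interval 1.81 to 2.24). As with Jag1, its interval included 2-fold. Heyl, on chromosome 4 at 123233556 to 123249870, had 126 and 21 counts, 5.04 and 0.913 CPM, and was 5.52-fold lower (interval 3.46 to 9.23). Only 73 measured genes (0.539%) had a lower ratio than Heyl.

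The remaining Hey genes were sparse. Hey1, on chromosome 3 at 8663359 to 8667038, had 20 Vehicle and 5 IL-17A counts, 3.68-fold lower (interval 1.34 to 12.5). Hey2, on chromosome 10 at 30832359 to 30842783, had 12 and 1, 11.0-fold lower (interval 1.63 to 472). The width of that interval comes from the 1 count with IL-17A, and with a prior count of 2 the log2 ratio of Hey2 went from -3.46 to -2.15. The 4 factors together stood at 51.3 CPM with Vehicle and 23.5 with IL-17A, 2.18-fold lower (interval 1.97 to 2.42), and most of that sum was Hes1. Per kilobase Hes1 held 95% of the level of these 4 genes with Vehicle and 98.0% with IL-17A.

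Heyl was lower beyond what Hes1 was. There were 0.112 Heyl counts for each Hes1 count with Vehicle and 0.0409 with IL-17A, a 2.74-fold lower ratio (interval 1.69 to 4.63). For Hey1 and Hey2 against Hes1 the intervals ran from 0.660 to 6.26 and from 0.806 to 235, so no difference from Hes1 was detectable at this depth. The count ratio of Jag1 to Hes1 was nearly the same in both libraries, 1.94 with Vehicle and 1.93 with IL-17A, with an interval of its change from 0.881 to 1.14. Hes1 and Rbpj moved apart, from 0.480 to 0.142 Hes1 counts for each Rbpj count, a 3.38-fold lower ratio (interval 3.0 to 3.81). Of the related genes, Hes6, which is known to oppose Hes1, had 384 and 338 counts, a log2 ratio of -0.06. Nrarp, a feedback inhibitor induced by Notch, had 9 and 3 counts, and Hes7 had 18 and 15. Hes6 and Hes7 were chosen after their values were seen, and Hes5 was not analysed here.

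Compared per kilobase of transcript, the order of levels with Vehicle was Hes1 at 30.7 CPM per kilobase, Rbpj at 17.1, Jag1 at 15.6, Notch2 at 7.16, Notch1 at 3.67, Notch3 at 3.45, Heyl at 1.11, Hey1 at 0.330, Hey2 at 0.188 and Jag2 at 0.0392. In that order the counting intervals of Notch1 and Notch3 overlapped, as did those of Hey1 and Hey2. With IL-17A, Rbpj led at 28.7, followed by Hes1 at 15.2, Notch2 at 9.28 and Jag1 at 7.69. Notch1 at 1.46 and Notch3 at 0.905 no longer overlapped, and Heyl, Hey1, Jag2 and Hey2 stood at 0.201, 0.0897, 0.0596 and 0.0170. In this library the interval of Hey1 overlapped with those of Heyl, Jag2 and Hey2, and that of Jag2 with that of Hey2. These levels used the longest GENCODE M21 transcript matched to RefSeq. With merged exon lengths, Rbpj was at 7.36 CPM per kilobase with Vehicle, under Jag1 at 15.0, and at 12.3 with IL-17A, still above Hes1 at 11.0. By these lengths Notch3 stood above Notch1 with Vehicle, at 3.42 and 2.44. With IL-17A, Notch1 was at 0.971 and Notch3 at 0.897. The order of Notch1 and Notch3 with Vehicle thus depends on the length used, and the overlaps given above hold for the transcript lengths only.

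**Figure D4:**
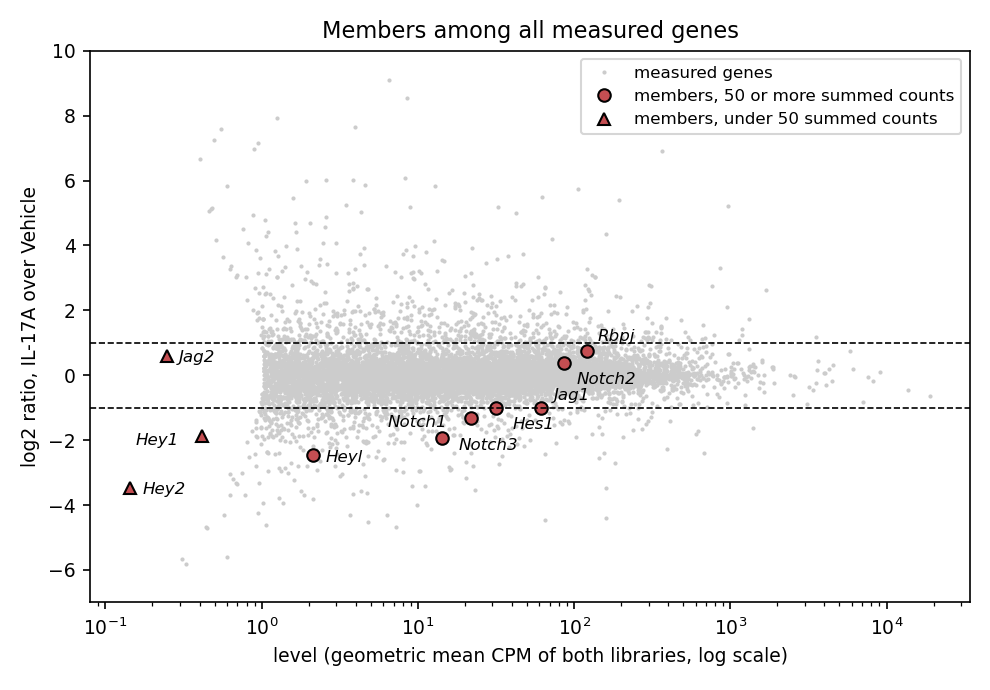
Log2 ratio of IL-17A over Vehicle against level, the geometric mean CPM of both libraries on a log axis, for the measured genes (grey) and the 10 genes described here (red). Dashed lines mark 2-fold. The 3 measured genes with no count in a library are not drawn. The 5 called members lie on or under the lower line, and Notch2 and Rbpj lie between the lines at 0.37 and 0.75.

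The further genes of the pathway went both ways. Of 88 further genes on 9 lists of Notch pathway components, 82 were in the table and 74 were measured. Of these 74, 5 (6.76%) were called higher and 5 (6.76%) lower, with a median log2 ratio of -0.03. Over all measured genes the shares were 5.19% higher and 3.69% lower, so the calls named below are single genes and not a trait of the lists. The lists of receptors and of Hes and Hey factors had medians of -1.33 and -1.01, which rest on the members described above.

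The genes that cut the receptor were measured in 9 of 10 cases and 0 passed 2-fold either way, with a median of 0.20. The proteases Adam17, at 2610 and 4311 counts, and Furin, at 6856 and 10532, stood highest, at 0.84 and 0.74 on the log2 scale. The sheddase Adam10 stood at 0.03. These 3 were chosen after their values were seen. Of 8 measured genes that glycosylate the receptor, 1 was called lower and 0 higher. It was Lfng, the Fringe enzyme that adds sugars to Notch and biases it towards Delta ligands, at 177 and 66 counts, 2.47-fold lower (interval 1.85 to 3.33).

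In the nucleus, 1 of 9 measured genes of the Rbpj complex and its coactivators was called higher. This was the Mastermind gene Maml3, at 101 and 261 counts, 2.81-fold higher (interval 2.22 to 3.57). All 18 measured corepressors and turnover genes lay within 2-fold, with a median of -0.03. Among 14 measured genes of endocytosis and trafficking, 2 were called higher and 0 lower. Dtx4, a Deltex ubiquitin ligase that acts on Notch, had 280 and 992 counts and was 3.85-fold higher (interval 3.37 to 4.41). Dner, a non-canonical Notch ligand, had 161 and 305 counts and was 2.06-fold higher, or 0.97 on the log2 scale and inside the limit under total-count scaling.

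Of 13 measured genes reported as Notch targets in other settings, 3 were called lower and 1 higher, with a median of -0.23. Ccnd1, cyclin D1, had 7029 and 1848 counts and was 3.50-fold lower. Tgfb2, a TGF-beta ligand, had 526 and 148 counts and was 3.27-fold lower, and the transcription factor Sox9 had 392 and 175 and was 2.06-fold lower. Gata2, at 42 and 79 counts, was 2.04-fold higher, and inside the limit at 0.96 with total-count and 0.99 with upper-quartile scaling. Other members of this list, chosen after their values were seen, were Myc at 0.04 and Efnb2 at -0.78 on the log2 scale.

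**Figure D5:**
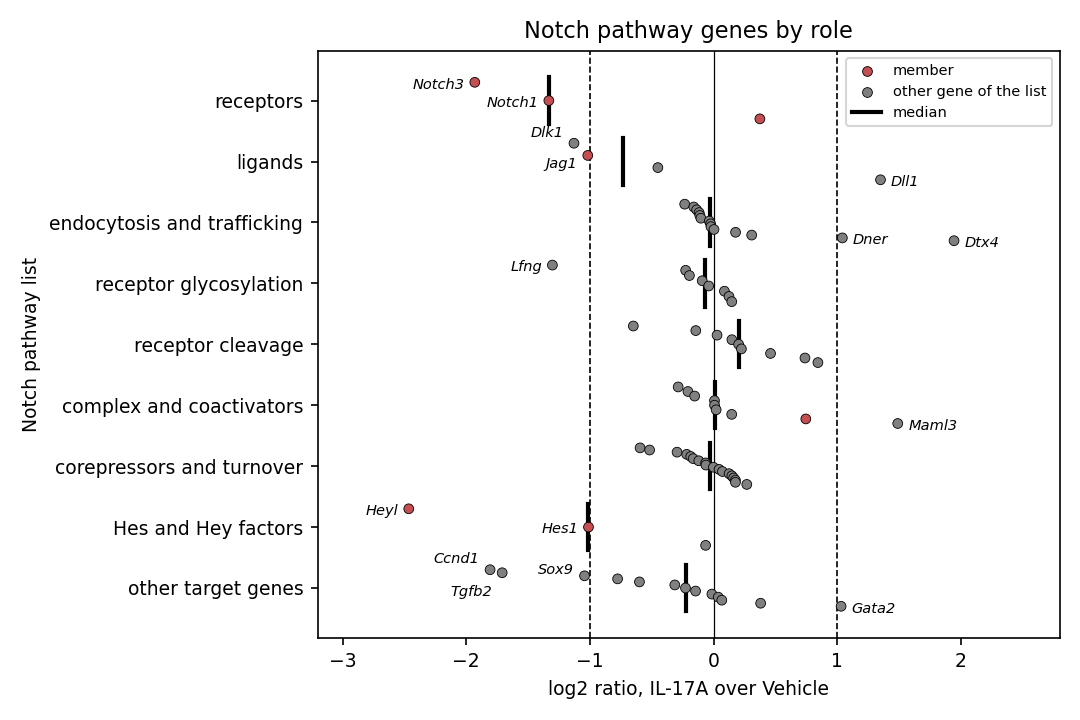
Log2 ratio of IL-17A over Vehicle for the measured genes of each Notch pathway list (vertical axis), members in red, other genes in grey, black bars at list medians and dashed lines at 2-fold. Genes past 2-fold are named. The receptor, ligand and Hes and Hey lists have medians of -1.33, -0.73 and -1.01, while the medians of the other lists lie between -0.23 and 0.20.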

How the data were processed

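RNA was sequenced from 2 cultures, 1 library per group. Per the labels' protocols, RNA extraction used a PureLink kit and library preparation used Illumina stranded mRNA. STAR, featureCounts and mm10 are named in the submitters' processing notes. Annotation, tool versions, strandedness of counting and handling of multi-mapped reads were not given in the sources used here. Whole-number, unnormalized counts for each gene symbol were deposited by the authors.

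TMM factors for the library sizes came from edgeR 4.0.16 (R 4.3.3). The unit needs a count test, but with 1 library in a group no spread can be estimated, so ratios with exact 95% Clopper-Pearson intervals were given, computed with Python 3.11.15 and scipy 1.17.1. Intervals of a change in the count ratio of a pair of genes are exact conditional ones. A count of 0 allowed up to 3 counts, 0.120 CPM with Vehicle and 0.130 with IL-17A. The calculation was tested on simulated counts.

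Alternatives were total-count, upper-quartile and DESeq2 1.42.0 median-of-ratios scaling, minimums of 10, 200 and no counts, limits of 1.5-fold and 3-fold, and a prior count of 2. Named are the 10 members, listed pathway genes past 2-fold, Notch4, Dll1, Dll4, Hes5, Nrarp, for each non-fibroblast cell type its marker with the most summed counts, and Cxcl1, Lcn2 and Il6. For the member with the most counts, the 3 protein-coding genes nearest in log2 ratio within 1.25-fold of its Vehicle level are also named. The members and lists were chosen with earlier results of these data known. Exon lengths from RefSeq were not used here, so levels per kilobase used GENCODE M21 transcript lengths, a choice made after seeing the files. Coordinates are RefSeq's on GRCm38.p6. Genes on the opposite strand overlap Notch1, Notch3 and Rbpj in GENCODE M21. The 1 of them in the table, 0610009E02Rik beside Notch1, had 10 counts in either library.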

Additional observations from a re-analysis of the deposited data

How the results depend on the processing

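The direction of each of the 10 members was the same in all 40 values under another scaling or a prior count. Scaling moved a log2 ratio by at most 0.07, and the member nearest equality, Notch2, stood at 0.37. Scaling therefore could not have reversed a direction, and a prior count mainly draws ratios towards equality. Under total-count, upper-quartile and median-of-ratios scaling the count of members called lower stayed at 5 and of those called higher at 0. At 1.5-fold, 1 member, Rbpj, was called higher, and at 3-fold 2 members, Notch3 and Heyl, were called lower. With a minimum of 10 counts or none, which let in Jag2, Hey1 and Hey2, 7 of 10 were lower and the members' median was -1.17. A minimum of 200, which left out Heyl with its 147 summed counts, gave 4 of 6 lower and 0 higher, with a median of -1.01. Over all genes, 1090 were higher and 955 lower with a minimum of 10, and 1573 and 1335 with none. The totals with none took a count of 0 as 3 counts. A gene with 1 count in 1 library and 0 in the other then falls in the opposite direction. These totals are therefore not the numbers of genes higher and lower. The members are not affected, since each had a count in both libraries. The limit at 3-fold gave 340 and 219 and that at 1.5-fold 1364 and 1117, and a minimum of 200 left 275 lower. With merged exon lengths, chosen after seeing the data, Notch2 made up 54.3% of the receptor level with Vehicle and 82.9% with IL-17A. Notch1 then held 19.0% and 8.90%, and Notch3 26.6% and 8.22%. No paired analysis was possible because each group had 1 library. Depth limits Jag2, Hey1 and Hey2, and the spread between cultures was not measured.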

Other observations

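With 2 libraries the pattern of a gene is 1 ratio, so likeness was read as the absolute difference in log2 ratio. Rbpj, at 0.75, had the most counts of the members. Among 1131 protein-coding genes of similar Vehicle level, the 3 nearest were Sgk1, a kinase known as a glucocorticoid response gene, at 0.75, Ifrd1 at 0.76 and the transcription factor Ets2 at 0.77. They went from 2118 to 3268, from 1993 to 3101 and from 2721 to 4267 counts.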
